A study of Caenorhabditis elegans with 26 samples.

Results

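This comparison sets XX embryos of Caenorhabditis elegans carrying the allele y57 of dpy-27, 3 arrays, against wild-type XX embryos, 3 arrays, both from worms raised on NG plates. The 6 arrays were chosen by their sample titles and are 6 of the 26 of the series, whose other arrays hold other genotypes or plates and were not used. Embryos were freed from egg-bearing adults with bleach, and total RNA was hybridised, labelled with biotin, to Affymetrix arrays. The study addresses how the dosage compensation complex acts on gene expression, and its text calls the replicates biological. The titles give 1 date to the 3 dpy-27 arrays and another to the 3 wild-type arrays, so genotype and date cannot be told apart in any result here. Embryo stage, the number of animals per sample and the genotype of the mothers are not given in the sources used here.

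In C. elegans, hermaphrodites carry a pair of X chromosomes and males a single one, and a complex built on condensin loads on both X chromosomes of the XX embryo, where it lowers transcription. DPY-27 is the subunit that sets this complex apart from mitotic condensin, where the related protein SMC-4 takes its place. MIX-1, DPY-26, DPY-28 and CAPG-1 are the other condensin subunits, and SDC-2, SDC-3, SDC-1, DPY-30 and DPY-21 recruit the complex or act with it. Without DPY-27, XX embryos are known to express X-linked genes at raised levels, and most die.

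The deposited values are log2 signals from RMA and ran from 3.07 to 14.33 over 22548 probe sets, of which 20766 name 1 gene. Each of 17118 genes was followed on its brightest probe set over the 6 arrays: 2360 genes are X-linked, 14750 autosomal and 8 mitochondrial. Genes with a mean log2 signal above 6.16, the median over genes, are called expressed here, 8559 in all. Arrays correlated over genes at 0.9939 to 0.9971 within a group and at 0.9666 to 0.9746 between groups, and array medians lay between 6.09 and 6.21. Every change is a log2 difference, dpy-27 mean minus wild-type mean of 3 against 3 arrays, with its limma standard error (SE). A gene is said to have risen or fallen where its Benjamini-Hochberg adjusted p over all 17118 genes was under 0.05. At that threshold 6943 genes were called, 40.6% of those tested, 3769 of them up (22.0%) and 3174 down (18.5%). Among expressed genes 61.6% were called, 32.3% up and 29.3% down. A dagger (†) marks genes whose kept probe set ends in _s_at or _x_at, probes that can match several transcripts. A double dagger (‡) marks those whose kept probe set the array annotation pairs with a sequence accession, for a reason that the values below show.

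The transcript of dpy-27 itself was not measurably altered on its brighter probe set, at log2 signals of 10.55, 10.49 and 10.37 in the mutant and 10.59, 10.41 and 10.58 in wild type. The groups overlapped, and the difference was -0.05 (SE 0.09, limma adjusted p = 0.694). Its other probe set, of the class marked by a double dagger, gave 0.81, so the transcript does not separate the genotypes on the array, and the labels cannot be checked by it. Of the 10 genes of the complex 4 rose and none fell by limma (0 at an unadjusted p under 0.05). The X-linked recruiter gene sdc-2‡ stood at 11.06, 11.20 and 10.76 in the mutant against 9.79, 9.77 and 9.90, a rise of 1.19 (SE 0.12, limma adjusted p = 5.34e-05), with 0.81 on its other probe set. All 3 mutant arrays lay above all 3 wild-type arrays. Among autosomal members, the condensin subunit genes capg-1 (0.69, SE 0.10) and dpy-28 (0.67, SE 0.09) rose, but their other probe sets gave 0.10 and -0.09. The histone demethylase gene dpy-21† rose by 0.29 (SE 0.09, limma adjusted p = 0.0292), against -1.14 on its other probe set. That call was lost without mutant replicate A, B or C (0.29 each) and without wild-type replicate B (0.23). The remaining members were not called: sdc-3† at 0.34 (limma adjusted p = 0.0599), the X-linked sdc-1 at -0.23 (called at -0.35 without wild-type replicate B), dpy-30 at -0.16, mix-1†‡ at 0.07 and dpy-26† at -0.06.

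Which probe set stood for a gene mattered for the size and often for the sign of a change. The array annotation pairs 2130 of the probe sets naming 1 gene with a sequence accession and 18636 with none, and 1593 genes were followed on one with an accession. For 217 X-linked genes that have a probe set of each class, the median change was 1.13 on the probe set with an accession and 0.19 on the other. The first was the higher in 205 of them (94.5%). For 881 autosomal genes the medians were 0.37 and -0.32, with the first higher in 810 (91.9%). Over the 1976 genes whose 2 brightest probe sets were both expressed, the sign was the same in 1067, and 86 genes had opposite changes past 1.5-fold on both. What sets the classes apart was not tested, and the main results and several of the lists are therefore given by class.

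Most expressed X-linked genes rose, and expressed autosomal genes moved both ways. Rises made up 65.6% of the 1304 expressed X-linked genes (856) and falls 9.13%, with a median change of 0.59 and quartiles of 0.12 and 1.05. Among the 7247 expressed autosomal genes there were 1899 rises (26.2%) and 2390 falls (33.0%), with a median of -0.05 and quartiles of -0.48 and 0.35. Of all 2360 genes on X 47.1% rose and 7.08% fell, against 18.0% and 20.4% of all 14750 on autosomes. The 3 mutant arrays lay above the 3 wild-type arrays for 53.2% of X-linked and 24.7% of autosomal genes, and below them for 9.41% and 25.0%. Changes past 2-fold were upward for 28.1% of expressed X-linked and 3.39% of expressed autosomal genes, and 1.23% and 9.08% fell by as much.

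The median change of expressed genes was -0.05 on chromosome I, -0.10 on II, -0.08 on III, 0.01 on IV and -0.03 on V. With arrays re-centred on their autosomal medians, the median change of all genes moved from 0.04 to 0.13. The sign of the autosomal median turned, to 0.04, and the autosomal calls went from 2649 up and 3007 down to 3821 up and 2438 down. The X-linked median was then 0.68. The direction of the autosomal balance thus depends on the scaling, which leaves the distance between X and autosomes as it was.

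The X shift is that distance in each array: the median of the expressed genes on X less that of those on autosomes, with each gene's wild-type mean first taken off. It was 0.65, 0.58 and 0.71 in the 3 mutant arrays and -0.07, 0.07 and 0.00 in the 3 wild-type arrays. The groups did not overlap and differed by 0.64 (SE 0.06), or 1.56-fold. Over all genes, dim ones included, the shift was 0.26. An exact permutation test, two-sided, gave p = 0.1, which is as low as 3 against 3 arrays can go. With probe sets without an accession only, mutant arrays ranged from 0.49 to 0.61 and the shift was 0.55 (1225 X-linked and 6823 autosomal genes). With only those that have one, the mutant arrays ranged from 0.80 to 0.83 and the shift was 0.81 (296 and 1305 genes).

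**Figure D1:**
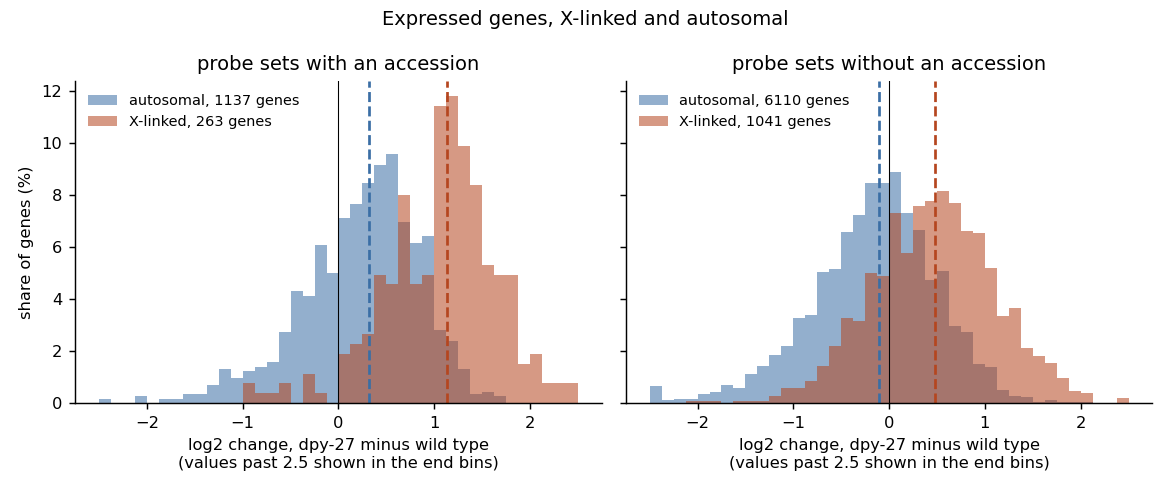
Histograms of the log2 change (x axis, dpy-27 minus wild type) as shares of genes (y axis, percent) for expressed X-linked and autosomal genes, by whether the kept probe set has an accession; dashed lines are medians. Medians are 1.13 for X-linked and 0.32 for autosomal genes with an accession, and 0.48 and -0.11 without, so X-linked genes lie to the right in both panels and both sets lie further right in the first.

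The split by class also moved the counts of genes called. Among expressed genes with an accession, the 263 on X held 235 rises and 8 falls, and the 1137 on autosomes 559 rises and 195 falls. Without one, the 1041 on X held 621 rises and 111 falls, and the 6110 on autosomes 1340 rises and 2195 falls. Autosomal rises outnumbered falls in the first class and falls outnumbered rises in the second.

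The distance between X-linked and autosomal genes depended on signal level. Genes were cut into 10 bins of equal size by their mean over the 6 arrays. In the 4 dimmest bins, up to a log2 signal of 5.24, the median of X-linked minus that of autosomal genes was -0.01, 0.01, 0.06 and 0.09. In the fifth bin it was 0.22, and in the 5 brightest, from dim to bright, it was 0.55, 0.65, 0.65, 0.67 and 0.76. In the brightest bin, 76.7% of 240 X-linked genes rose, against 6.37% of 157 in the dimmest. Autosomal rises went from 2.83% to 35.6% over the same bins. Without probe sets that have an accession the distance in the 5 upper bins was 0.55, 0.58, 0.60, 0.55 and 0.74. Probe sets with an accession made up 1.05% of the dimmest bin and 32.2% of the brightest. The spread between replicates was smallest in the dimmest bin and largest in the middle. The median within-group SD was 0.07 in the first bin, 0.15 in the sixth and seventh, and 0.12 in the brightest.

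**Figure D2:**
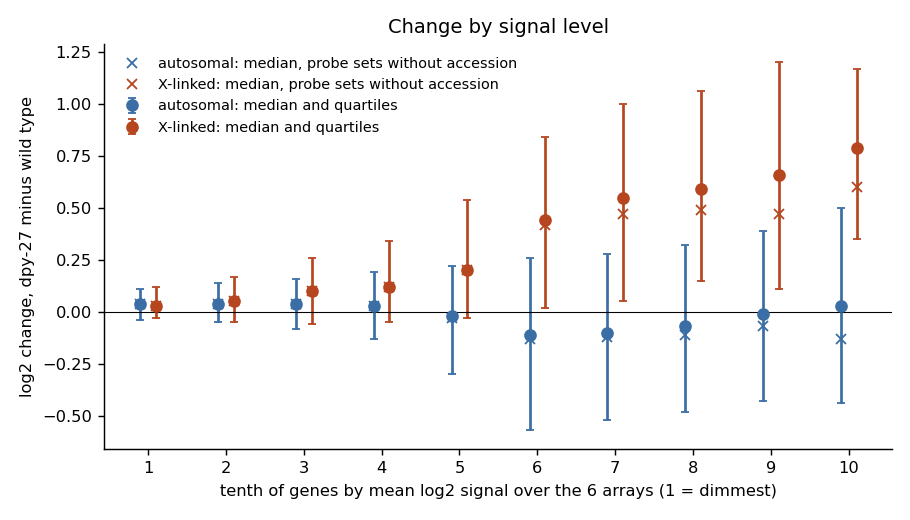
Median log2 change with lower and upper quartiles (y axis) of X-linked and autosomal genes in 10 bins of equal size by mean log2 signal over the 6 arrays (x axis); crosses are medians over probe sets without an accession. The X-linked medians rise from 0.03 in the dimmest to 0.79 in the brightest bin, while autosomal medians stay between -0.11 and 0.04.

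Rises were found along the whole X chromosome. The 2360 X-linked genes were cut into 10 groups of 236 in chromosome order. The median change of the expressed genes of a group was 0.42 at the left end, then 0.64, 0.63, 0.73, 0.64, 0.75 and 0.76, and 0.49, 0.49 and 0.36 toward the right end. Between 52.8% and 72.7% of the expressed genes of a group rose. The lowest median of any mutant array in any group was 0.34. On probe sets without an accession the medians ran from 0.20 in the rightmost to 0.71 in the seventh group. These are descriptions, and no difference between the groups was tested.

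**Figure D3:**
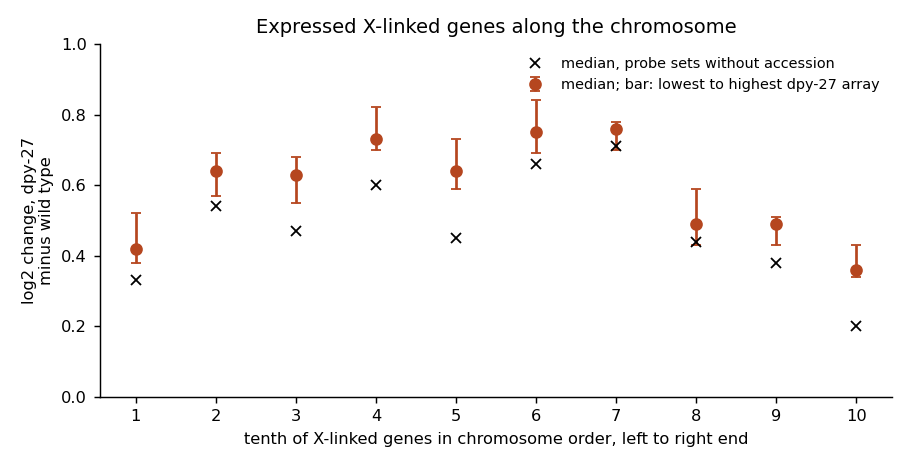
Median log2 change (y axis) of expressed X-linked genes, with bars from the lowest to the highest median of a dpy-27 array, in 10 groups of 236 X-linked genes from the left to the right end of the chromosome (x axis); crosses are medians of probe sets without an accession. The highest medians, 0.75 and 0.76, lie in the sixth and seventh groups and the lowest, 0.36, at the right end.

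The largest X-linked rise among genes that the naming rule admits was that of the transcriptional corepressor gene ctbp-1‡. Its log2 signals were 10.85, 10.82 and 11.07 in the mutant and 8.15, 8.42 and 8.25 in wild type, a rise of 2.64 (SE 0.11, limma adjusted p = 5.52e-07). The groups were far apart on that probe set, but the other probe sets of ctbp-1 gave 0.02 and -0.53. The gene pqn-62, which encodes a glutamine- and asparagine-rich protein, had 9.94, 9.79 and 9.96 against 7.34, 7.73 and 7.31, a rise of 2.44 (SE 0.12), and 1.23 on its other probe set. For jkk-1‡, a kinase of the JNK pathway, the rise was 2.36 (SE 0.10), from 6.56, 6.36 and 6.60 to 8.92, 8.80 and 8.88, and its other probe set gave 1.23. Both genes stood higher in the mutant on each of their probe sets.

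Several of the following X-linked genes act in neurons or muscle. The neuronal gene cab-1‡ rose by 2.30 (SE 0.09), from 8.59, 8.59 and 8.54 to 10.98, 10.90 and 10.75, but stood at -0.22 on its other probe set. The synaptic immunoglobulin gene rig-3‡ rose by 2.16 (SE 0.22), to 10.92, 10.83 and 10.96 from 8.12, 9.18 and 8.94, a wider wild-type spread than in the other genes, and its other probe set gave 0.56. The muscle potassium channel gene twk-18‡ rose by 2.12 (SE 0.12), to 10.96, 10.79 and 11.28 from 8.83, 8.94 and 8.91, with 1.24 on its other probe set. The nicotinic receptor gene acr-8, with a single probe set, rose by 1.98 (SE 0.15), to 9.51, 9.22 and 9.61 from 7.17, 7.70 and 7.52. The transporter gene mrp-6‡ (2.06, SE 0.09), the gene tsp-16 (2.06, SE 0.13) for a tetraspanin and pcdr-1‡ (2.03, SE 0.10) complete the 10. The other probe sets of mrp-6 and pcdr-1 gave 0.33 and 0.27, and the call of pcdr-1 was lost on that one.

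Some X-linked genes fell. The cuticle collagen gene col-165 fell by 2.04 (SE 0.12), from 12.05, 12.39 and 12.47 to 10.24, 10.20 and 10.34, and col-172, of the same class, fell by 1.34 (SE 0.12). The gene toca-1, which encodes an endocytic adaptor of actin assembly, had 4.41, 4.47 and 4.77 against 6.33, 6.42 and 6.57, a fall of 1.89 (SE 0.12), against -0.14 on its other probe set. The autophagy gene atg-2 fell by 1.18 (SE 0.10), from 10.45, 10.45 and 10.49 to 9.35, 9.42 and 9.09. The dehydrogenase gene dhs-30 (-1.18, SE 0.12) and inso-1 (-1.08, SE 0.11) are the other 2 that the rule admits, and none of these 6 genes carries a probe set with an accession as its kept one.

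The largest autosomal rise that the naming rule admits was that of the cystatin gene cpi-1, 2.06 (SE 0.18), within the range of the 10 X-linked rises above. Its signals went from 5.48, 5.07 and 5.52 to 7.49, 7.02 and 7.74. Genes of development among the 10 largest were the cell fusion gene aff-1‡ (1.72, SE 0.29), the pharyngeal T-box gene tbx-2 (1.70, SE 0.10), the Hox gene mab-5‡ (1.66, SE 0.12) and the forkhead gene lin-31‡ (1.62, SE 0.09). Their other probe sets gave 0.50, 0.41, 0.14 and -0.11. The others were gtnt-14 (1.90, SE 0.17), dbd-13 (1.89, SE 0.14), the phospholipase gene ipla-7‡ (1.68, SE 0.10, with 0.54 on its other probe set), the claudin-like gene clc-11 (1.65, SE 0.16) and the glucuronosyltransferase gene ugt-26 (1.61, SE 0.17).

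Autosomal falls reached further. The cuticle collagen gene col-48 stood at 5.35, 5.28 and 4.91 in the mutant and at 9.47, 9.89 and 9.79 in wild type, a fall of 4.54 (SE 0.15, limma adjusted p = 2.66e-07). The small heat-shock gene hsp-16.2 had 6.35, 8.03 and 7.75 against 11.75, 11.94 and 11.67, and hsp-16.41, of the same family, had 6.37, 8.35 and 8.24 against 11.39, 11.99 and 11.68. Both spread over more than the wild-type arrays did among the mutant arrays, with replicate A lowest, and fell by 4.41 (SE 0.35) and 4.04 (SE 0.44). The exoribonuclease gene xrn-2 fell by 3.26 (SE 0.18), from 8.41, 9.04 and 8.83 to 5.71, 5.62 and 5.17. The cell death modifier gene mcd-1 fell by 3.17 (SE 0.09), and by 1.45 on its other probe set. The remaining falls were in the collagen genes col-77 (-3.44, SE 0.12) and col-14 (-2.64, SE 0.13), in lido-9 (-2.77, SE 0.11), and in pqn-41 (-2.72, SE 0.12) and pqn-27 (-2.49, SE 0.17). The other probe sets of pqn-41 gave 0.15, -0.68 and 0.06, and that of pqn-27 gave 0.08, so these 2 falls rest on 1 probe set each.

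**Figure D4:**
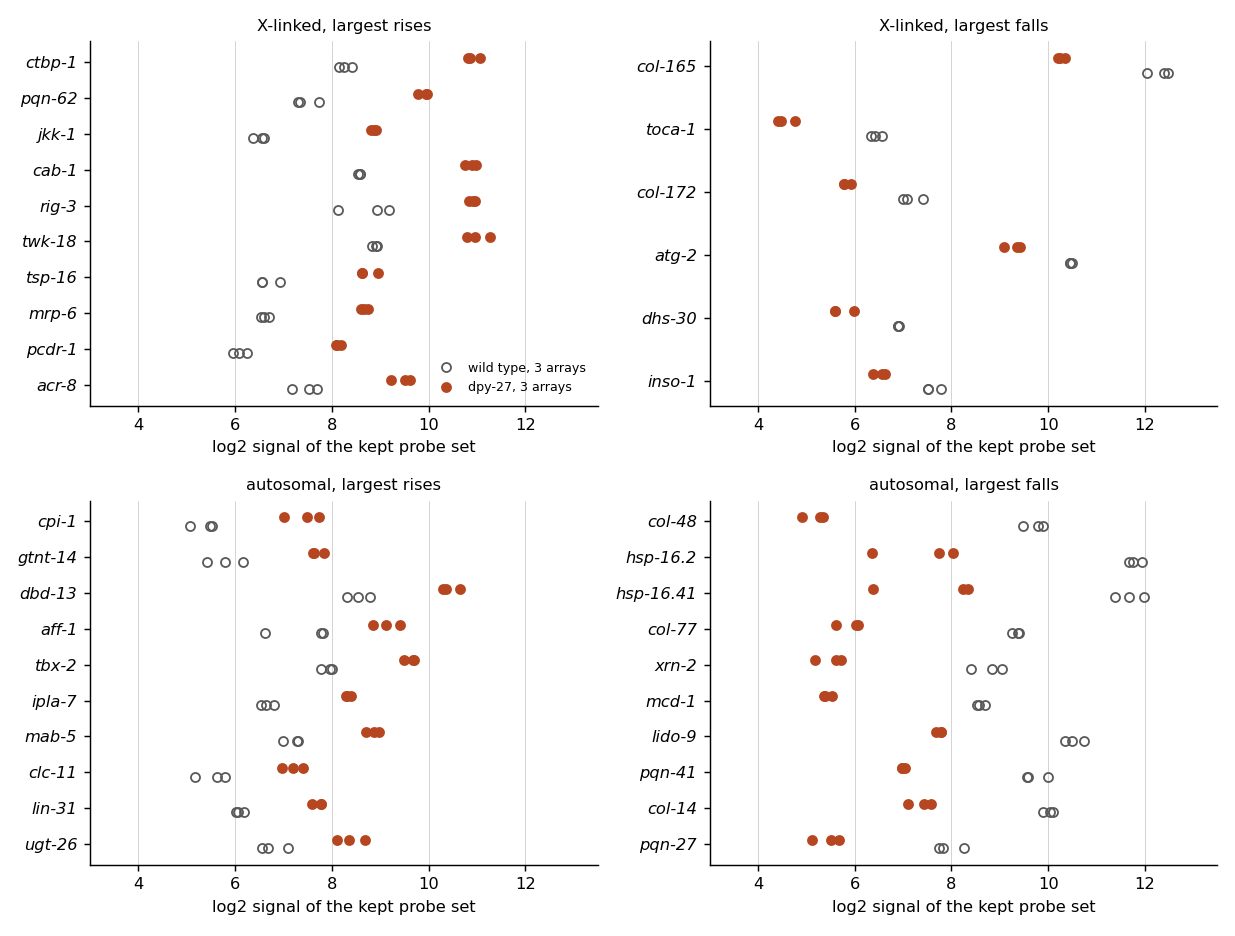
Log2 signal of the kept probe set (x axis) in each of the 3 dpy-27 arrays (filled) and 3 wild-type arrays (open) for the largest changes that the naming rule admits, X-linked and autosomal, up and down. In every gene shown the 2 groups are apart; hsp-16.2 and hsp-16.41 have 1 mutant array well below the other 2.

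Genes for protein folding and turnover mostly fell. As a measure for this and the following lists, 22.0% of all genes rose and 18.5% fell. Among expressed genes the shares were 32.3% and 29.3%. Of 13 heat-shock genes, hsp-110 and the regulator gene hsf-1†‡ included, 8 fell and none rose by limma (0 at an unadjusted p under 0.05). The inducible gene hsp-70† (-4.51, SE 0.15) fell beside hsp-16.2 and hsp-16.41. Of 26 cytosolic chaperone genes 15 fell and 3 rose. The Hsp90 cochaperone genes sti-1† (-2.78, SE 0.18) and cdc-37† (-2.20, SE 0.10) fell most, and hsp-1, for constitutive Hsc70, fell by 1.87 (SE 0.10). The ubiquitin ligase gene chn-1‡ had the largest rise (0.68, SE 0.12), and its other probe set gave -0.52. Of 33 proteasome genes 28 fell (84.8%) and none rose by limma (0 at an unadjusted p under 0.05), with a median of -0.85. Among all genes 18.5% fell, and among expressed genes 29.3%. The deubiquitinase subunit gene rpn-11† (-2.31, SE 0.17) and the core subunit genes pbs-4 (-1.79, SE 0.18) and pbs-2† (-1.75, SE 0.15) fell most. Signals of pbs-4 were 8.65, 9.26 and 8.70 in the mutant against 10.93, 10.42 and 10.65.

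Chaperones of the mitochondrion and the endoplasmic reticulum were mixed. Of 18 mitochondrial chaperone and import genes 7 fell, led by hsp-60†‡ (-2.47, SE 0.13), which gave -2.46 on its other probe set, and by the import gene timm-23† (-1.71, SE 0.10). The X-linked regulator gene dve-1‡ of the mitochondrial stress response was 1 of 3 to rise (1.59, SE 0.17), with 0.55 on its other probe set. Of 21 endoplasmic reticulum genes 8 fell and 5 rose. Of the sensor genes of the unfolded protein response, the X-linked atf-6† rose by 1.45 (SE 0.08) and ire-1 by 1.07 (SE 0.10), with 0.89 and 0.32 on their other probe sets. The X-linked sensor gene pek-1†‡ was not called, at -0.32 (SE 0.13, limma adjusted p = 0.0763). The folding genes dnj-27 (-1.39, SE 0.13) and the X-linked pdi-2† (-1.21, SE 0.11) fell, and pdi-2 gave 0.42 on its other probe set. The median of this list was 0.47 over 5 genes on probe sets with an accession and -0.43 over 16 without.

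Most nuclear genes of the respiratory chain fell. Of 44 nuclear respiratory chain genes 31 fell (70.5%) and 3 rose, with a median of -0.58. The complex I gene nuo-5† (-1.66, SE 0.12), ucr-2.3 of complex III (-1.50, SE 0.11) and cox-5A of cytochrome oxidase (-1.47, SE 0.11) fell most, but cox-5A gave 0.07 on the probe set with an accession. Of the 3 rises the largest was X-linked, the succinate dehydrogenase gene sdha-1‡ (0.72, SE 0.12), which gave -0.34 on its other probe set. All 8 mitochondrially encoded genes on the array rose, singled out here after their values were seen. Signals of COX1 were 13.27, 13.19 and 13.04 in the mutant and 12.39, 12.51 and 12.55 in wild type, a rise of 0.68 (SE 0.10). ND1† rose by 0.86 (SE 0.09), ND5 by 0.58, ND4 by 0.55, ATP6 by 0.47, COX2 by 0.43, CYTB by 0.41 and COX3 by 0.29 (SE 0.09). For COX3 the signals were 13.52, 13.31 and 13.38 against 13.05, 13.12 and 13.17, with no overlap, but its call was lost without 5 of the 6 arrays in turn, at 0.23 to 0.32, that is, without any mutant replicate but B and without any wild-type replicate. In RNA from whole embryos, fewer cells of a type and less RNA per cell cannot be told apart, here and in the lists that follow.

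Other metabolic lists held more falls than rises. Of 19 glycolysis and gluconeogenesis genes 12 fell, led by the phosphoenolpyruvate carboxykinase gene pck-1† (-1.90, SE 0.16) and the hexokinase gene hxk-2† (-1.69, SE 0.11). The only rise was in the X-linked phosphofructokinase gene pfk-1.1 (0.50, SE 0.12), whose other probe set gave -0.17. Of 24 genes of the TCA cycle and pyruvate dehydrogenase 10 fell and 6 rose, with the lipoamide dehydrogenase gene dld-1 at 6.85, 6.76 and 6.54 against 9.04, 8.84 and 9.06 (-2.27, SE 0.11). The X-linked succinyl-CoA ligase gene suca-1† rose by 0.68 (SE 0.09). Of 34 fatty acid and glyoxylate genes 13 fell and 7 rose: the glyoxylate cycle gene icl-1†‡ fell by 1.51 (SE 0.09) and the desaturase gene fat-3 rose by 1.51 (SE 0.20). The acyl-CoA dehydrogenase gene acdh-1 fell by 2.38 (SE 0.82), with 5.77 in mutant replicate A, 8.93 and 9.69 in the others, and 9.86, 10.98 and 10.68 in wild type. Its call was lost without wild-type replicate B or C, at -2.14 and -2.29. Of 36 oxidative stress and detoxification genes 17 fell and 4 rose, led by the superoxide dismutase gene sod-1† (-1.55, SE 0.09), the catalase gene ctl-2† (-1.45, SE 0.12) and the glutathione transferase gene gst-7 (-1.40, SE 0.11). Of 18 vacuolar ATPase genes 10 fell and 2 rose, and their medians were 0.21 over 4 genes with an accession and -0.49 over 14 without. In that list vha-9† (-1.05, SE 0.10) and vha-8† (-1.01, SE 0.09) fell most.

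Lists of protein synthesis and splicing held more falls than rises, except the tRNA synthetase list. Of 75 cytosolic ribosomal protein genes 43 fell and 3 rose, with a median of -0.29, and 29 fell with re-centred arrays. The largest fall was in rpl-7A† (-1.56, SE 0.10), then in rpl-13 (-1.27, SE 0.08), with 12.07, 12.01 and 12.14 against 13.31, 13.36 and 13.37. Of 59 mitochondrial ribosomal protein genes 30 fell and 3 rose, with a median of -0.31, led by mrpl-17 (-1.66, SE 0.10) and mrpl-40 (-1.63, SE 0.09). Of 37 translation factor genes 17 fell, led by the initiation factor gene eif-3.J (-2.26, SE 0.10), and 6 rose, led by eif-3.C†‡ (0.70, SE 0.10), whose other probe set gave -0.48. Genes for tRNA synthetases were split evenly, 10 up and 10 down of 32. Of 40 splicing genes 20 fell and 4 rose. The helicase gene snrp-200† fell by 2.10 (SE 0.13), and rsp-3‡, for an SR protein, rose by 0.56 (SE 0.12) on 1 probe set while its others gave 0.02 and -2.76.

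Histone genes fell in 27 of 36 and rose in 1, with a median of -1.07. The largest falls were in his-62† (-1.89, SE 0.09), his-31† (-1.87, SE 0.14) and his-61† (-1.86, SE 0.10). Histone genes are near-identical copies, and 21 of the 36 were followed on probe sets that can match several transcripts, so single genes are uncertain. The single rise was in the X-linked linker histone gene his-24‡ (0.40, SE 0.08), which gave -1.32 on its other probe set. Of 67 DNA replication and mitosis genes 18 rose and 23 fell, but the split differed by probe class. With an accession 10 of 15 rose and 1 fell, and without one 8 of 52 rose and 22 fell. The cyclin A gene cya-1‡ rose by 1.20 (SE 0.11), with 0.19 on its other probe set, and the kinetochore gene knl-3† fell by 1.73 (SE 0.10).

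Collagen genes of the cuticle mostly fell. Of 128 collagen genes of the col class 84 fell (65.6%), against 18.5% of all genes and 29.3% of expressed ones. None rose by limma (0 at an unadjusted p under 0.05), and the median was -0.49. Of the 18 X-linked ones 12 fell, with a median of -0.54. After col-48 the largest fall was in col-65† (-3.83, SE 0.10), from 10.52, 10.60 and 10.39 to 6.66, 6.57 and 6.80. Of 51 genes of the epidermis and its apical matrix 18 rose and 18 fell, where 32.3% of expressed genes rose and 29.3% fell. That list also holds collagen genes with other names, many of which fell, and its rises lay outside them. The junction gene jac-1† (-2.23, SE 0.09) and the collagen genes dpy-13† (-2.12, SE 0.15) and the X-linked dpy-3† (-1.99, SE 0.13) fell, and the regulators nhr-25‡ (X-linked, 1.66, SE 0.17) and nhr-23†‡ (1.21, SE 0.12) rose. Other probe sets gave 0.85 for nhr-25 and 0.00 for nhr-23. Of 81 hedgehog-related and patched-related genes, which act in the epidermis, 16 rose, with the X-linked wrt-4† highest (2.07, SE 0.15), and 21 fell, with grl-16† lowest (-2.58, SE 0.10). These counts lie not far from the shares of all genes, 22.0% up and 18.5% down.

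Muscle and neuronal lists had more rises than falls. Among all genes 22.0% rose and 18.5% fell, and among expressed genes 32.3% and 29.3%. The muscle list is not split by probe class here. Of 42 body wall muscle genes 23 rose and 10 fell, with a median of 0.42, and 15 of the rises were among the 28 autosomal members. The kinase gene unc-82 rose by 1.44 (SE 0.10), from 9.30, 9.42 and 9.41 to 10.80, 10.67 and 10.97, while its other probe sets gave -0.27 and -0.01. The X-linked troponin T gene tnt-3†‡ rose by 1.27 (SE 0.18). Contractile genes were among the falls: the myosin gene unc-54† had 7.54, 7.52 and 7.72 against 9.18, 9.48 and 9.39 (-1.76, SE 0.11), and the troponin C gene pat-10† fell by 1.31 (SE 0.10). Of 49 neuronal genes 24 rose and 10 fell. Of the 14 X-linked ones 11 rose, where 47.1% of all X-linked genes and most expressed ones did. Besides cab-1 and rig-3, the X-linked aex-3‡ rose by 1.85 (SE 0.18), with 0.34 on its other probe set. The tubulin gene mec-12† of touch neurons (-1.49, SE 0.10) and the peptide-processing gene egl-21† (-1.03, SE 0.09) fell. Over 19 neuronal genes with an accession the median was 0.98 and over 30 without it was 0.10.

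Pharyngeal genes rose in 9 of 23 and fell in 5, where 32.3% of expressed genes rose and 29.3% fell. After tbx-2 the X-linked peb-1‡ (1.39, SE 0.12) and the homeobox gene ceh-22‡ (1.38, SE 0.13) rose most, and phat-5† fell (-1.27, SE 0.12). Of the 10 X-linked members of the intestinal list 7 rose and 1 fell, where 47.1% of all X-linked genes and 65.6% of the expressed ones rose. Of its 16 autosomal members 1 rose and 9 fell, where 20.4% of all autosomal genes fell, and 29.3% of expressed genes on any chromosome. The X-linked GATA factor gene elt-2‡, which directs intestinal expression, rose by 1.44 (SE 0.16), from 7.35, 8.01 and 7.98 to 9.27, 9.25 and 9.14, but gave -0.27 on its other probe set. The X-linked filament gene ifd-1 (0.88, SE 0.10) and peptide transporter gene pept-1 (0.81, SE 0.13), neither on a probe set with an accession, also rose. The autosomal protease gene asp-1 fell by 2.08 (SE 0.14), from 11.05, 11.09 and 10.82 to 9.18, 8.84 and 8.68, and the actin gene act-5† fell by 1.07 (SE 0.08).

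Among transcription factor and channel genes most were not called. Of 254 nuclear hormone receptor genes 70 rose (27.6%, against 22.0% of all genes) and 23 fell (9.06%, against 18.5%), the X-linked nhr-45‡ by 1.67 (SE 0.10) and the autosomal nhr-136 by 1.51 (SE 0.09). Of 60 ceh homeobox genes 20 rose (33.3%) and 5 fell. The X-linked ceh-18† had 9.02, 8.77 and 8.25 against 6.19, 6.21 and 6.35 (2.43, SE 0.17), but its other probe set gave 0.01, and ceh-91 fell by 1.63 (SE 0.13). Of 19 basic helix-loop-helix genes 6 rose and 2 fell, with hlh-34 highest at 1.51 (SE 0.12). Of 63 potassium channel genes 15 rose (23.8%, near the share of all genes) and 4 fell, with the X-linked kqt-2‡ at 1.77 (SE 0.12), which gave -0.02 and 0.67 on other probe sets, and the autosomal slo-1 at -2.27 (SE 0.16). Of 25 innexin genes 10 rose (40.0%) and 1 fell. The X-linked innexin gene unc-9‡ rose by 1.71 (SE 0.10), to 11.15, 11.06 and 11.12 from 9.23, 9.54 and 9.42, and gave -0.07 on its other probe set. Of 106 neuropeptide and insulin-like genes 18 rose and 28 fell, with 11 of the rises among the 29 X-linked ones and 25 of the falls among the 77 autosomal ones. Of all X-linked genes 47.1% rose, and of all autosomal genes 20.4% fell. The X-linked flp-8‡ rose by 1.74 (SE 0.15), with 0.08 on its other probe set.

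Of 21 sex determination and X counting genes 6 rose and 4 fell, where 22.0% of all genes and 32.3% of expressed ones rose. Of the 5 X-linked members 4 rose, as did 47.1% of all X-linked genes and most expressed ones. The switch gene xol-1†, which X signal elements repress, had 8.60, 8.85 and 8.37 against 7.54, 7.19 and 7.29 (1.27, SE 0.14), with 0.57 on its other probe set. The X signal element gene ceh-39‡ rose by 0.87 (SE 0.12), but its other probe sets gave 0.14 and -0.66. The RNA-binding protein gene sup-26† fell by 1.71 (SE 0.11). Of 14 mitotic condensin and cohesin genes 5 rose and 3 fell: the X-linked cohesin gene coh-1‡ rose from 10.15, 10.25 and 10.13 to 11.82, 11.65 and 11.56, with -1.11 on its other probe set, and the loading factor gene scc-2 fell by 1.20 (SE 0.09), with -0.71. Of 60 chromatin and synMuv genes 23 rose and 17 fell. The X-linked H3K27 demethylase gene utx-1 rose by 1.35 (SE 0.16), from 10.49, 10.48 and 9.86 to 11.74, 11.62 and 11.52, with 0.93 on its other probe set, and the methyltransferase gene set-16† fell by 1.75 (SE 0.12).

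The counts of this paragraph stand beside 22.0% up and 18.5% down among all genes, and 32.3% and 29.3% among expressed ones. Of 37 early maternal messages 15 fell and 7 rose. The oocyte maturation gene oma-2† fell by 1.28 (SE 0.23) and gave 0.30 on its other probe set, puf-3† fell by 1.02 (SE 0.16) and the Y-box gene cey-2 by 1.01 (SE 0.12). The polarity kinase gene pkc-3‡ rose by 0.86 (SE 0.10), with -0.16 on its other probe set. Of 50 early zygotic regulators 14 rose and 9 fell, and all 7 with an accession rose, among them nhr-25, elt-2 and the Hox gene nob-1‡ (1.21, SE 0.11), which gave 0.16 and -0.05 elsewhere. The germline and meiosis list of 35 had 9 rises and 11 falls, with the P granule gene pgl-1† lowest (-1.90, SE 0.13). Small RNA pathway genes rose in 15 of 46 and fell in 12, both near the shares of expressed genes. The X-linked Argonaute gene alg-1‡ was highest: 1.43 (SE 0.16) on its kept probe set and 1.24 and 0.51 on the others. Among 32 cell death genes 12 rose and 6 fell, among them the activator egl-1‡ (1.03, SE 0.19), the X-linked ced-8 (0.89, SE 0.09) and wah-1 (-1.54, SE 0.12). Of 28 autophagy genes 7 rose and 8 fell, with the kinase gene unc-51† lowest (-2.52, SE 0.10), from 9.70, 9.68 and 9.71 to 7.17, 7.32 and 7.04. The innate immunity list of 37 had 8 rises and 10 falls: the kinase genes sek-1†‡ (X-linked, 1.47, SE 0.10, with -0.27 on its other probe set) and pmk-1 (0.92, SE 0.12) rose and the peptide gene cnc-4 fell (-1.82, SE 0.15).

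Some families are mostly dim on these arrays. Chemoreceptor genes rose in 132 of 1238 and fell in 5, with only 8 of them expressed, and 318 rose with re-centred arrays. F-box genes, of which 121 are expressed, rose in 64 of 310 (20.6%, against 22.0% of all genes) and fell in 21. Other lists are not mostly dim. Of 55 small GTPase and vesicle coat genes, 49 of them expressed, 20 fell (36.4%) and 15 rose (27.3%). Among all genes 18.5% fell and 22.0% rose, and among expressed genes 29.3% fell and 32.3% rose. Cytoskeletal genes, for tubulins, actins and kinesins, rose in 8 of 39 and fell in 12. Of 26 nuclear pore genes 5 rose and 5 fell, of 40 transthyretin-like genes 12 and 8, and of 33 astacin genes 7 and 3.

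Across lists, X-linked members were set side by side in 2 groups made after the values were seen, with no test. In 15 lists of metabolism, folding, protein synthesis and turnover, 9 of 35 expressed X-linked members rose and 10 fell, with a median of 0.06, and the median of 448 autosomal members was -0.39. In 12 lists of tissues, transcription factors, chromatin and channels, 65 of 95 rose (68.4%) and 10 fell, with a median of 0.60, and that of 329 autosomal members was 0.17. The share of X-linked rises and the X-linked median of this second group lie near those of all expressed X-linked genes given above. Those of the first group lie below them. The X-linked medians stood 0.45 and 0.43 above the autosomal ones. On probe sets without an accession the X-linked medians were -0.12 (25 genes) and 0.37 (58 genes).

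**Figure D5:**
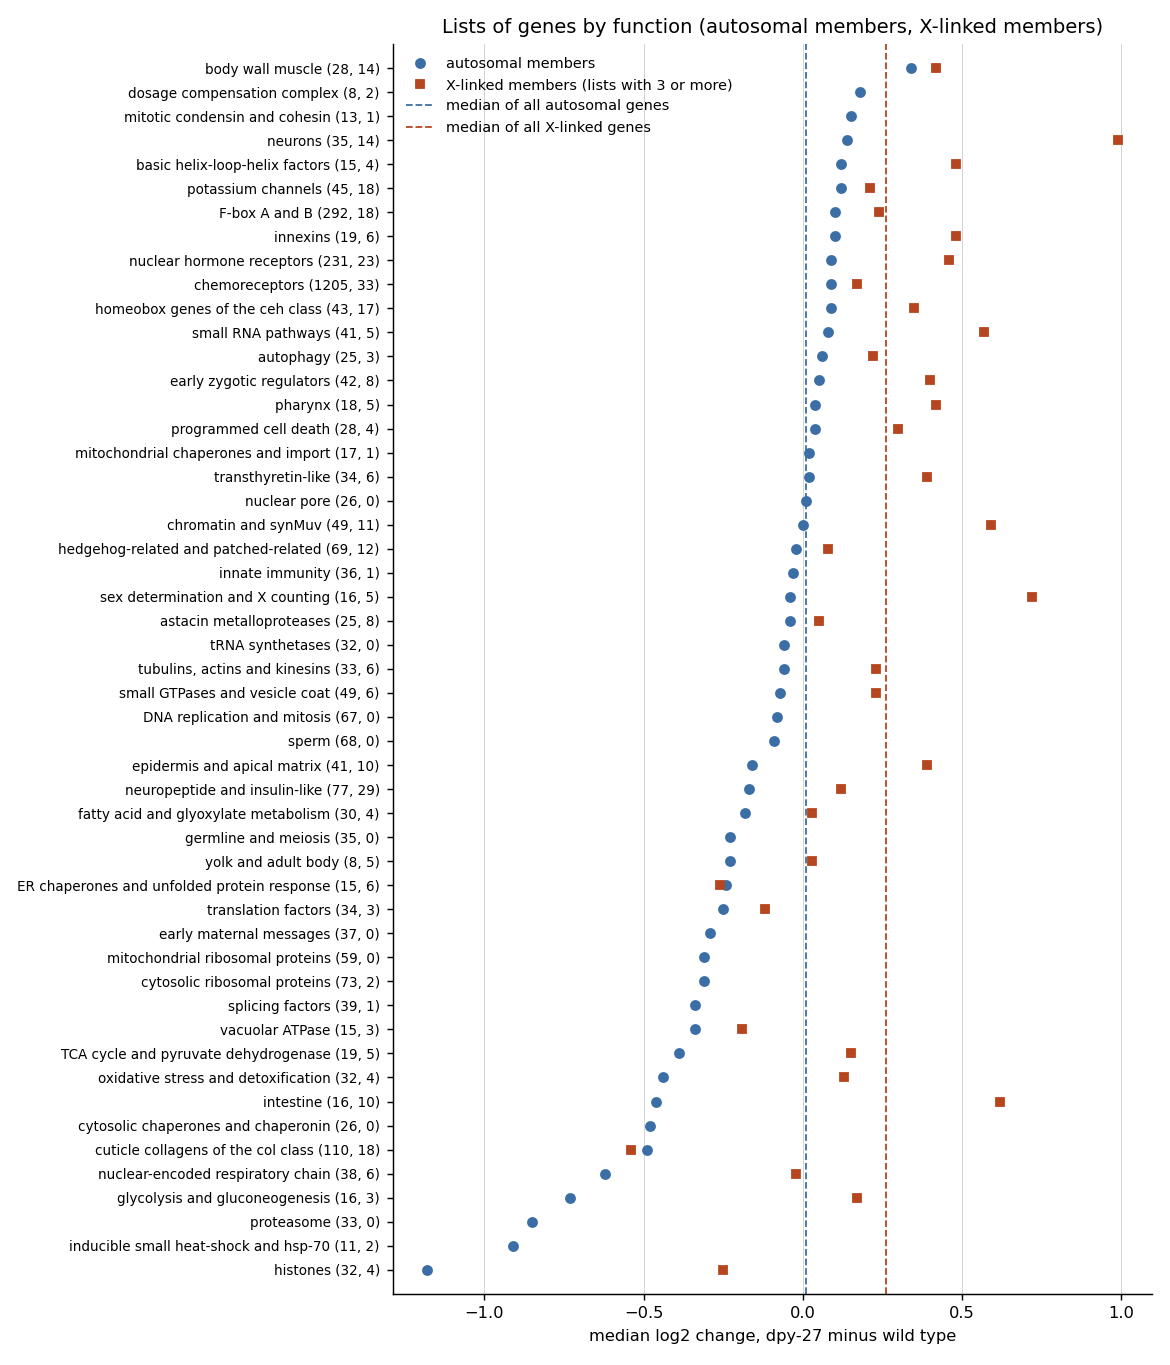
Median log2 change (x axis) of the autosomal members (circles) and, where a list has 3 or more, the X-linked members (squares) of each list by function (y axis), with dashed lines at the medians of all autosomal and all X-linked genes, 0.01 and 0.26. Histone, heat-shock, proteasome and glycolysis lists lie furthest left, and X-linked members lie to the right of autosomal ones in most lists, col collagens and endoplasmic reticulum chaperones excepted.

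Marker lists of embryo stage and of other tissue were compared between the groups. The 10 markers of the embryo, given here without daggers, were mex-5, pos-1, pie-1, oma-1, med-1, end-1, end-3, elt-1, hlh-1 and pha-4. Of these 8 were expressed, and 5 of the 10 fell and 1 rose, where 29.3% of expressed genes fell and 32.3% rose. Mean log2 signals over the list were 8.51 to 8.71 in mutant arrays and 8.67 to 8.96 in wild type, ranges that overlap. All 6 late embryo markers were expressed, at 9.79 to 9.98 against 10.41 to 10.57, with no overlap, and 4 of them fell and 1 rose. They were, again without daggers, myo-3, unc-54, unc-15, dpy-7, noah-1 and unc-119. They thus include the collagen gene dpy-7 (-1.83, SE 0.14) and contractile genes such as unc-54, and are no separate measure of stage for the falls of such genes. Yolk genes, markers of adult body, were at overlapping levels, 4.56 to 4.80 against 4.62 to 4.90, with none of the 5 measured expressed. The 68 sperm genes were at 4.90 to 4.92 against 5.00 to 5.03, with no overlap, and with 3 expressed, 1 up and 7 down. The part of embryo stage in the falls of collagen, histone and contractile genes was not tested.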

How the data were processed

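Total RNA of 6 embryo samples was measured on 6 Affymetrix arrays. The deposited log2 values per probe set come from RMA (version not given in the sources used here), per the submitters' processing notes. Here, probe sets naming 1 gene were kept, with chromosomes from the NCBI gene table, and 887 naming several genes and 895 naming none were left out. The brightest probe set over the 6 arrays stood for a gene. No filter on low values was used.

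Differences were tested with limma 3.58.1 in R 4.3.3 (lmFit and eBayes, 4 residual and 5.36 prior degrees of freedom, two-sided), with Benjamini-Hochberg adjustment over 17118 genes; the code was tested on simulated data. Arrays give no read depth, and their number limits the precision.

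The naming rule takes called genes with groups apart and a group mean above 6.16. It takes the 10 largest X-linked and 10 largest autosomal rises, and the 6 and 10 largest falls, with _s_at and _x_at probe sets set aside. It adds the complex and the 3 largest changes each way in 51 lists. Members and lists were chosen with earlier results of these data known. The alternatives covered scaling, the choice of probe sets, a filter on low values, left-out arrays, a replicate block, the limma prior, array weights and the thresholds.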

Additional observations from a re-analysis of the deposited data

How the results depend on the processing

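The count of 6943 called genes ran from 5085 to 7679 over re-centring, the mean of probe sets, no _s_at or _x_at probe sets, expressed genes only, a trended prior and array weights. Leaving out 1 array gave 5777 to 6601. At an adjusted p under 0.01, 104 X-linked genes fell and 1752 autosomal genes rose. Without _s_at and _x_at probe sets, 1947 autosomal genes fell. Against a 1.5-fold change 1442 genes were called: 387 up and 19 down on X, 300 up and 736 down on autosomes. A further 2 alternatives were added after seeing the data. With only probe sets with an accession, fewer genes were tested and 1288 called: 284 up and 13 down on X, 713 up and 276 down on autosomes. With only those without, 6498 were called, and of 6290 called both ways 173 had the opposite sign.

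The X shift was 0.56 with the mean of probe sets, 0.59 without _s_at and _x_at ones, 0.26 over all genes and 0.60 to 0.68 with 1 array left out (smallest possible exact permutation p 0.2). Replicate letters recur in both groups, but same-letter deviations correlated at 0.023, -0.326 and 0.113, so the letters do not pair the arrays. With the replicate block 6546 genes were called.

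Of the genes named, some changed sign with the probe set. With the mean of probe sets dpy-21 gave -0.42, dpy-27 0.38, his-24 -0.46 and rsp-3 -0.73. Without _s_at and _x_at ones dpy-21 gave -1.14, oma-2 0.30, pdi-2 0.42 and sek-1 -0.27. With an accession only, cox-5A gave 0.07, dpy-27 0.81, oma-2 0.30 and pqn-41 0.15. Without one, cab-1 gave -0.22, ceh-39 -0.66, chn-1 -0.52, coh-1 -1.11, ctbp-1 -0.53, eif-3.C -0.48, elt-2 -0.27, his-24 -1.32, lin-31 -0.11, nob-1 -0.05, pkc-3 -0.16, rsp-3 -2.76, sdha-1 -0.34, sek-1 -0.27 and unc-9 -0.07. The cause was not tested.

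Signals near the floor limit dim genes: the dimmest of the 10 bins, up to a log2 signal of 3.94, had 3.62% of its genes called, against 70.9% of the brightest bin.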

Other observations

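Some gene classes outside the lists, defined by their symbols, were singled out after their values were seen. Their counts are descriptions, and no test was run on any class. Cyclophilin genes of the cyn class, which encode peptidyl-prolyl isomerases, fell in 12 of 15 (80.0%), with a median of -0.43. Among all genes 18.5% fell, and among expressed ones 29.3%. In the cyn class 0 rose by limma (1 at an unadjusted p under 0.05). Classes of the transcription machinery had some members down and others not called or up. Of 15 taf genes, for subunits that bind TBP, 8 fell and 2 rose, with a median of -0.64, or -0.65 over the 12 without an accession. Of 10 rpb genes, for RNA polymerase II subunits, 6 fell and 0 rose by limma (0 at an unadjusted p under 0.05), with a median of -0.34. Of 16 mdt genes, for Mediator subunits, 8 fell and 4 rose, with a median of -0.25, or -0.04 over the 13 without an accession.

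Other classes had more rises than falls. Of 16 mig genes, named for cell migration, 10 rose (62.5%) and 1 fell. Among all genes 22.0% rose, and among expressed ones 32.3%. The mig median was 0.53, or 0.42 over the 10 without an accession, and 4 of the 16 are X-linked. Of 28 cutl genes, for cuticulin-like proteins of the apical matrix, 11 rose (39.3%) and 1 fell. Claudin-like genes of the clc class rose in 10 of 23 (43.5%) and fell in 1. Genes for G protein alpha subunits of the gpa class rose in 9 of 18 (50.0%) and 0 fell by limma (0 at an unadjusted p under 0.05), with a median of 0.24 and no probe set with an accession among the kept ones.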
